A study of Mus musculus with 12 samples.

Results

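Rag1, Rag2, Dntt and Ptcra encode proteins that developing T cells use to assemble and test their antigen receptor, and they were examined here in thymic leukemias of mice that carry the TEL-JAK2 fusion. The members were all probe sets annotated to these 4 genes alone, which gave 7 of the 12422 probe sets tested, with 3 for Dntt, 2 for Rag1 and 1 each for Rag2 and Ptcra. RNA of thymic cell suspensions was hybridised to 12 Affymetrix arrays, and the values are the authors' RMA intensities, given here on the log2 scale. Leukemic cells on 8 arrays came from TEL-JAK2 mice at the terminal stage of disease, with no age in the labels. The other 4 arrays carried wild-type thymocytes taken at 2 months of age. Mice of both groups had the C57Bl/6 background. The median intensity of an array was 66.5 to 70.1 in leukemias and 68.7 to 70.2 in thymocytes. In TEL-JAK2 a part of Etv6 (TEL), a transcription factor, is fused to the kinase Jak2, and the labels do not name the promoter of the transgene, the sex of the mice or how many clones a leukemia held. Nothing in the labels says outright that each array is a separate animal, so the p-values cover only the scatter among these arrays, which may in part be technical.

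The RAG1 and RAG2 proteins form the recombinase that cuts DNA beside the V, D and J segments of antigen receptor genes. Terminal deoxynucleotidyl transferase, the product of Dntt, adds bases without a template to the opened ends before they are joined. A thymocyte that has made a productive beta chain pairs it with the pre-T-cell receptor alpha chain, the product of Ptcra, and the signal of this pre-TCR carries it from the CD4-CD8- (double-negative) to the CD4+CD8+ (double-positive) stage. The recombinase acts again in double-positive cells, on the alpha chain locus, and its genes are shut off when a receptor has been positively selected. Most cells of a normal thymus are double-positive.

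The 250 bases before the start of each of the 4 genes are shown because all 4 genes lay lower in the leukemias. They come from RefSeq on GRCm38.p6, where all 4 genes matched by symbol, and are written 5′ to 3′ on the strand of the gene. Capitals mark the letters CANNTG, the E-box core that E proteins such as E2A and HEB recognise, which reads alike on both strands.
Rag1 (chr2:101649533-101649782, minus strand): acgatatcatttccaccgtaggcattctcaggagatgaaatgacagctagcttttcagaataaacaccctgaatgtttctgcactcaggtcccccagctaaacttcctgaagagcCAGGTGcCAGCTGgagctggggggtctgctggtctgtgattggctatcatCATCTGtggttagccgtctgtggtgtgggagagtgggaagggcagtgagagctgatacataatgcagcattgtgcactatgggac
Rag2 (chr2:101624462-101624711, plus strand): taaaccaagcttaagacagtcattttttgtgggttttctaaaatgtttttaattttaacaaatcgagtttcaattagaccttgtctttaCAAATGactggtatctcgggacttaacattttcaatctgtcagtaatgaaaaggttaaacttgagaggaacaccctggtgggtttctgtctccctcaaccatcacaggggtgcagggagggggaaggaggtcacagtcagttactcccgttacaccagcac
Dntt (chr19:41029025-41029274, plus strand): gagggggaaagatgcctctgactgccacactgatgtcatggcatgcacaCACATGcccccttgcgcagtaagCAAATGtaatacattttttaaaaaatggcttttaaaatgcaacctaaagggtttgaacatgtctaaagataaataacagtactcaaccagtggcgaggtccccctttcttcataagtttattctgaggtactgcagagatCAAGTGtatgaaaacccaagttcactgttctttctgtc
Ptcra (chr17:46763713-46763962, minus strand): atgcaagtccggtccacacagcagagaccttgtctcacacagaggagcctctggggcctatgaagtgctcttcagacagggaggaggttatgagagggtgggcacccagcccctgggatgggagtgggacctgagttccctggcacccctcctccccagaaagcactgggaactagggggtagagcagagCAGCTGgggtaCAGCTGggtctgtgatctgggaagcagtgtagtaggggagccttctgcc

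The E-box core occurred 3 times in the Rag1 window, 1 time in that of Rag2, 3 times in that of Dntt and 2 times in that of Ptcra, and 66.04% of 27025 RefSeq promoters of the same length hold it. The other letters were searched on both strands. The Ikaros core TGGGAA occurred 1 time before Rag1 and 2 times before Ptcra (21.5% of promoters hold it). The RUNX core TGTGGT occurred 2 times before Rag1 alone of the 4 genes (14.2% of promoters), and the first of these shares letters with the E-box closest to the start. The short MYB core AACNG occurred 2 times each before Rag2 and Dntt (74.1% of promoters). Neither TTCNNNGAA, the palindrome that STAT factors recognise (7.18% of promoters), nor the GC box GGGCGG (32.9% of promoters) was found in any of the 4 windows. These matches describe letters in a short window and show no binding.

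On its brightest probe set each of the 4 genes had all 8 leukemia values below all 4 thymocyte values, and 6 of the 7 probe sets did so. Over the array, 6.84% of probe sets and 8.11% of genes separated the groups in this direction. On the log2 scale the difference was -2.50 for Rag1, -2.39 for Rag2, -1.72 for Dntt and -0.96 for Ptcra. Only part of this passed the test: in limma, with p-values adjusted across the 12422 probe sets by Benjamini and Hochberg and a threshold of 0.05, 3 of the 7 probe sets were called lower and 0 higher, against a background of 9.88% called lower and 4.65% called higher (14.5% in either direction). The called ones were those of Rag2 and Ptcra and 1 of the 3 of Dntt. Arrays measure RNA of whole suspensions, so fewer cells that use a gene and less RNA per cell cannot be told apart.

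Rag1 (gene ID 19373, chromosome 2), the catalytic subunit of the recombinase, was read by probe set 93683_at. Its log2 values were 4.86, 11.06, 10.62, 10.61, 10.20, 10.07, 7.99 and 9.93 in leukemias 1 to 8, against 11.85, 11.98, 11.83 and 11.99 in thymocyte arrays 1 to 4. Leukemia 1 lay far below all others, leukemia 7 came next, and the other 6 lay between 9.93 and 11.06, under the thymocytes. The value of leukemia 1 was below the 95th percentile of 19 control probe sets for non-mouse transcripts on its array (5.54), so there Rag1 was not well above background, and its level was at most 1.20% of the thymocyte mean (at least 83.01-fold lower). Leukemia 7 retained 6.59% of the thymocyte mean, and the remaining leukemias between 25.2% and 55.2%. The group means were 9.42 ± 2.06 (SD, n = 8) in leukemias and 11.91 ± 0.08 (SD, n = 4) in thymocytes.

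The log2 difference of -2.50 (SE 0.91) of Rag1 was the eighth lowest of all probe sets, yet it did not pass the test (limma adjusted p = 0.0906). Without leukemia 1 it was -1.85 and passed (SE 0.43, limma adjusted p = 0.0126). An exact permutation test of this probe set alone, two-sided over all assignments of arrays to groups, gave p = 0.0283 (0.141 adjusted over all probe sets). The difference, its error and its rank take leukemia 1 at its measured value, which was below background. The second Rag1 probe set, 161740_r_at, whose suffix marks probes chosen under relaxed rules, did not follow the first. It ranged from 7.12 to 7.49 in leukemias and from 7.27 to 7.59 in thymocytes, overlapped between groups, and differed by -0.02 (SE 0.09, limma adjusted p = 0.944). In leukemia 1, where the first probe set was at background, it read 7.48.

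**Figure D1:**
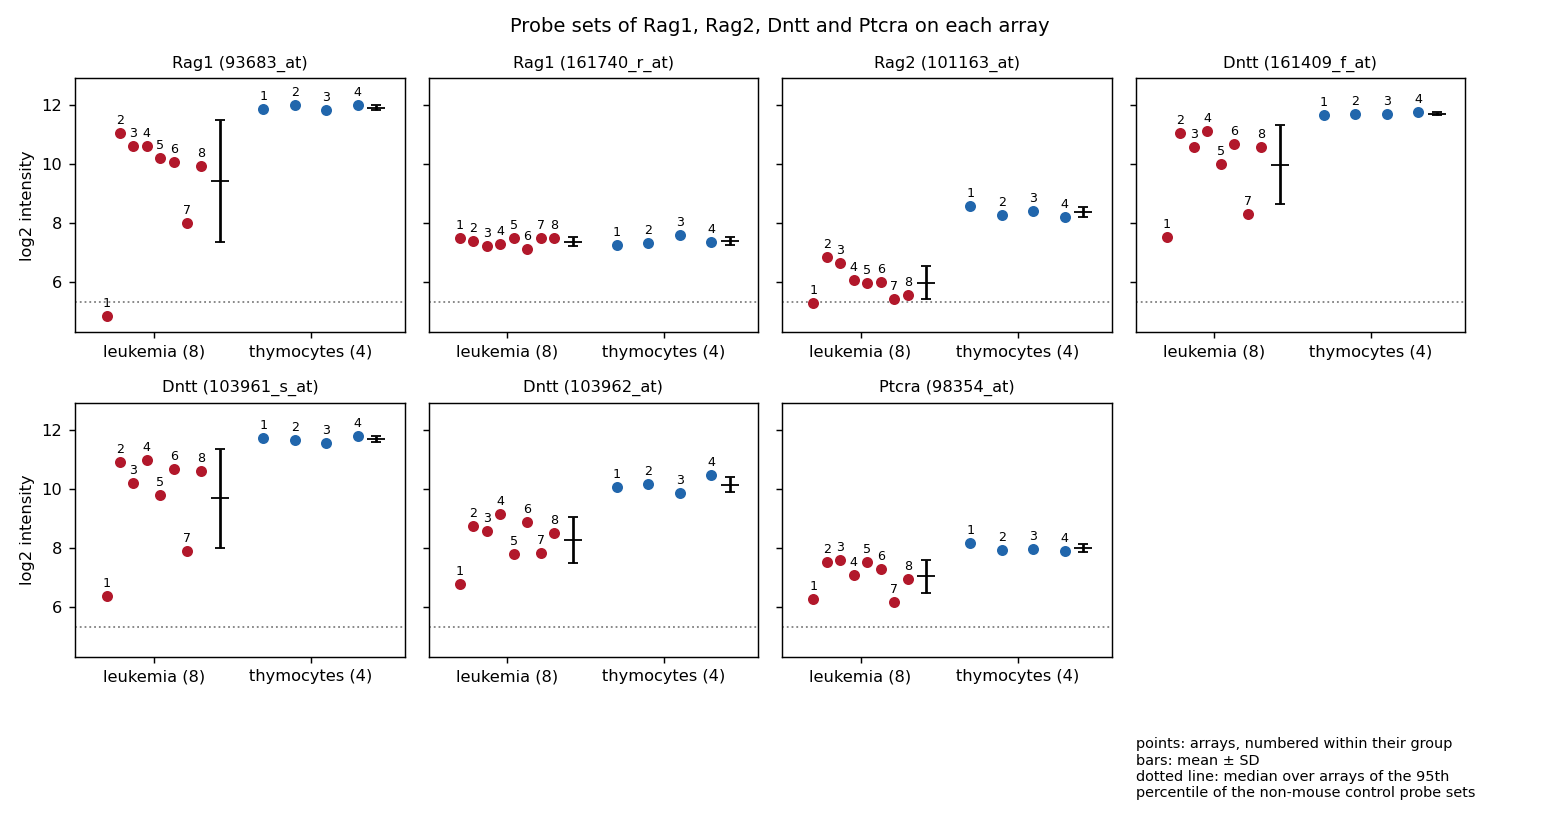
Log2 intensity of the 7 probe sets on each array, with leukemias at left and thymocytes at right in each panel. Points are arrays numbered within their group, bars give the mean ± SD, and the dotted line is the median over arrays of the 95th percentile of the non-mouse control probe sets; leukemias 1 and 7 are the lowest for Rag1 (4.86 and 7.99 on 93683_at), Rag2, Ptcra and the brightest Dntt probe set.

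Rag2 (gene ID 19374, chromosome 2), the partner that RAG1 needs for cutting and that reads histone marks, was measured by probe set 101163_at. Its log2 signal was 5.29, 6.84, 6.66, 6.08, 5.95, 6.00, 5.43 and 5.54 in leukemias 1 to 8, against 8.57, 8.27, 8.42 and 8.21 in thymocyte arrays 1 to 4. No leukemia came within 1.37 log2 units of the lowest thymocyte array, the widest clear gap among the 7 probe sets. In leukemias 1 and 8 the value was below the control percentile of the array, so the levels there are upper bounds. Rag2 fell by 2.39 on the log2 scale (SE 0.26, limma adjusted p = 4.0e-05), with means of 5.97 ± 0.56 (SD, n = 8) in leukemias and 8.37 ± 0.16 (SD, n = 4) in thymocytes. This was a 5.26-fold decrease. Leukemias 2 and 3, with the most Rag2, held 34.7% and 30.6% of the thymocyte mean.

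Rag2 differed less among leukemias than Rag1 (SD 0.56 against 2.06). The 2 probe sets differ in brightness, and Rag2 has little room above the control level, so these spreads are not a comparison of the genes. On 93683_at leukemia 2 had the highest value of Rag1, and the same leukemia had the highest value of Rag2.

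Dntt (gene ID 21673, chromosome 19), the template-free polymerase, was read by 3 probe sets. On the brightest, 161409_f_at, the log2 values were 7.53, 11.06, 10.58, 11.12, 9.999, 10.67, 8.30 and 10.56 in leukemias 1 to 8, against 11.66, 11.69, 11.68 and 11.77 in thymocytes. Leukemias 1 and 7 again stood apart, with 5.57% and 9.50% of the thymocyte mean, while leukemias 2 and 4 kept 64.4% and 66.7%. The means were 9.98 ± 1.33 (SD, n = 8) in leukemias and 11.70 ± 0.05 (SD, n = 4) in thymocytes, and the difference of -1.72 (SE 0.59) did not pass (limma adjusted p = 0.0716). Without leukemia 1 it was -1.37, and without leukemia 4 it was -1.88, and either way it passed (limma adjusted p = 0.0481 and 0.0453).

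The other Dntt probe sets also had leukemia 1 lowest. On 103961_s_at leukemias ranged from 6.35 in leukemia 1 and 7.89 in leukemia 7 up to 10.98 in leukemia 4, against 11.53 to 11.78 in thymocytes, and the difference of -2.01 (SE 0.74) did not pass (limma adjusted p = 0.095), but did without leukemia 1 (-1.53, adjusted p = 0.0476). The suffixes of these 2 probe sets mark possible cross-hybridization, and whether they read the same stretch of the transcript was not analysed here. The third, 103962_at, has no such suffix and was dimmer. It read 6.75, 8.73, 8.54, 9.14, 7.79, 8.86, 7.80 and 8.49 in leukemias 1 to 8, against 10.04, 10.15, 9.86 and 10.46 in thymocytes. Here leukemia 5 was as low as leukemia 7, and leukemia 1 alone lay clearly under the rest. On this probe set Dntt fell by 1.86 on the log2 scale (SE 0.35, limma adjusted p = 0.0029), a 3.64-fold decrease.

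Ptcra (gene ID 19208, chromosome 17), the invariant chain of the pre-TCR, was read by probe set 98354_at. Its log2 values were 6.25, 7.51, 7.58, 7.07, 7.49, 7.27, 6.16 and 6.92 in leukemias 1 to 8, against 8.17, 7.93, 7.96 and 7.89 in thymocytes. Leukemias 7 and 1 were lowest, at 28.1% and 30.1% of the thymocyte mean, and leukemia 3 was highest, at 75.4%. Ptcra fell by 0.96 on the log2 scale (SE 0.25, limma adjusted p = 0.0212), a 1.94-fold decrease, with means of 7.03 ± 0.56 (SD, n = 8) in leukemias and 7.99 ± 0.12 (SD, n = 4) in thymocytes. The call was lost without thymocyte array 1, 2 or 3 (adjusted p = 0.0801, 0.0566 and 0.0577).

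**Figure D2:**
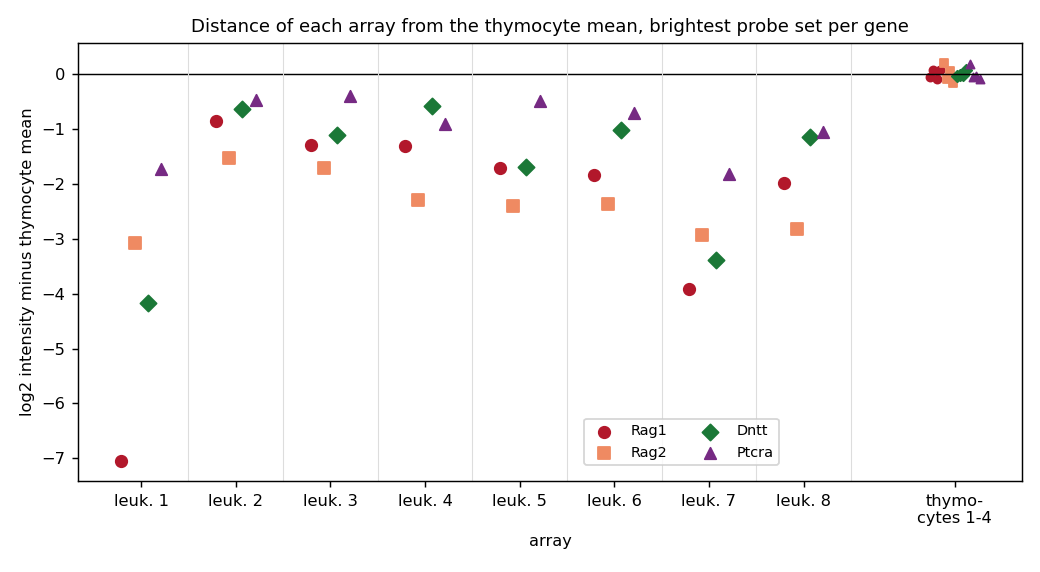
Log2 intensity minus the thymocyte mean for the brightest probe set of each gene, for leukemias 1 to 8 and, at right, thymocyte arrays 1 to 4. All leukemia points lie below 0; leukemias 1 and 7 hold the lowest points of each gene, and Rag1 in leukemia 1 is the lowest of all.

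Leukemias 1 and 7 thus held the 2 lowest values among leukemias for each of the 4 genes on their brightest probe sets. The same pair was lowest for 12.5% of the 8251 genes on the array, and for 21.7% of the 943 genes called lower in leukemia. The mean correlation of an array with the other arrays of its group, over probe sets, was 0.977 for leukemia 1 and 0.976 for leukemia 7, against 0.978 to 0.984 for the other leukemias. Without leukemias 1 and 7, a choice made after seeing these values, the differences were -1.501 (SE 0.19, limma adjusted p = 0.00023) for Rag1, -2.19 (SE 0.22) for Rag2, -1.03 (SE 0.18) for Dntt and -0.68 (SE 0.13) for Ptcra, and 6 of the 7 probe sets were called lower. The largest gap between neighbouring leukemias took 50.5%, 37.5%, 47.3% and 47.0% of the range for Rag1, Rag2, Dntt and Ptcra. A gap over 40% in either gene of a pair was the limit for treating the leukemias as separate clusters. Every pair of members was over it, so no correlation between members is given.

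The titles of 4 leukemias (2, 3, 4 and 5) and 3 thymocyte arrays carry a number of 4 digits and the other titles do not, and the labels do not say what this difference stands for. Within the arrays with such a number, the difference was -1.27 for Rag1 (SE 0.17, limma adjusted p = 0.00196), -2.04 for Rag2, -0.99 for Dntt on the brightest probe set and -0.61 for Ptcra, and all 4 passed. Within the others, with 4 leukemias and 1 thymocyte array that was assumed to vary like the leukemias, it was -3.78, -2.64, -2.50 and -1.24, and of these only Rag2 passed (limma adjusted p = 0.0493). With the title number as a block the differences were -2.07, -2.23, -1.47 and -0.81. Leukemias 1 and 7 both belong to the arrays without a 4-digit number, as do leukemias 6 and 8.

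Markers of T cells were measured above the control level in both groups, and some of them differed. Cd3e, Cd3g and Cd3d, the chains that carry the receptor signal, did not pass the test (log2 differences -0.19, -0.04 and 0.26). Of 9 T-lineage markers 2 fell and 1 rose, and their summed intensity was 11478 to 21955 in leukemias, against 19421 to 20437 in thymocytes, with the lowest sums in leukemia 1 (11478) and leukemia 7 (13916). Cd5, an inhibitory receptor of T cells, fell by 2.33 on the log2 scale (SE 0.34, adjusted p = 0.00049) and the coreceptor gene Cd4 by 1.89 (SE 0.31), and Cd2, which binds CD48, rose by 1.38 (SE 0.11, adjusted p = 2.4e-06). Thy1 and Cd8b1, the brightest, had differences of -0.31 and -0.49 that did not pass. Macrophage markers summed to 1081 to 4907 in leukemias, against 1121 to 1499 in thymocytes. None of the 10 passed, with differences of 0.63 (SE 0.49) for C1qc, a complement chain, and 0.77 (SE 0.36) for Mpeg1, the brightest. Lyz2 had the largest difference of this list, 1.17 (SE 0.41). Mrc1 was below the control level on every array. Adgre1, another marker of the list, was above it in leukemias 5 and 7 (5.38 and 5.23, against control levels of 5.27 and 5.20). It was below the control level in the other leukemias and all thymocytes. The sum was highest in leukemias 7, 5 and 3 (4907, 4230 and 3030), above the thymocyte range, whereas leukemia 1 had 1586, near that range. The part of these cells in the member values was not tested.

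Rag1, Rag2 and Dntt are also used by B-cell progenitors, and Ptcra by plasmacytoid dendritic cells. Of 8 B-lineage markers none passed in either direction, and their sum was 777 to 1275 in leukemias, against 712 to 741 in thymocytes. The brightest were Cd79a and Cd79b, parts of the B-cell receptor, with differences of 0.70 (SE 0.25) and -0.01 (SE 0.29), and Ebf1 and Vpreb3 were below the control level in both groups. Of 5 plasmacytoid dendritic cell markers 1 rose and 1 fell. Irf8, a transcription factor shared with other myeloid cells, rose by 1.20 (SE 0.35). Tcf4, an E protein gene, fell by 0.92 (SE 0.15, adjusted p = 0.0011), to a leukemia mean below the control level. The brightest, Ly6d, which lymphocytes also express, differed by -1.36 (SE 0.65) without passing. The sum of the 5 markers was 613 to 3925 in leukemias, against 2439 to 2769 in thymocytes. Of 7 granulocyte markers 3 fell, S100a8 by 1.66 (SE 0.22), S100a9 by 0.91 (SE 0.18) and Camp by 0.49 (SE 0.10). The mean of S100a9 in leukemias, 4.86, was below the control level. Its groups overlapped, with leukemias up to 5.45 and thymocytes from 5.43. Csf3r, the brightest, differed by 0.02. The sum of the 7 granulocyte markers was 636 to 858 in leukemias, against 866 to 1061 in thymocytes. Of 8 markers of stroma and epithelium 1 rose and 1 fell, both with means below the control level in each group, and Krt8 and Col1a2, the brightest, did not pass. None of 3 erythroid markers (Hba-a1 and Alas2 the brightest) and none of 3 NK cell markers (Klrk1 and Klrd1, all 3 below the control level) passed.

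The other genes of the pathway were read by the brightest probe set of each gene. Over the array, 11.4% of 8251 genes were called lower in leukemia and 5.15% higher (16.6% in either direction), with a median change of 0.0037 on the log2 scale. Of the 66 genes of the lists that were on the array, 16 were called lower and 7 higher, with a median of -0.08. Within the arrays without a 4-digit title number, 1 was called lower and 0 higher.

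RAG cofactors and the enzymes that join the cut ends had 5 of 12 listed genes on the array, of which 1 fell, 0 rose and 4 did not pass (median -0.18). The one that fell was Hmgb2, a DNA-bending protein that helps the recombinase hold its target sites (log2 change -0.91, SE 0.16, adjusted p = 0.0019), on a probe set chosen under relaxed rules. Xrcc6, the Ku70 subunit that binds broken ends, differed by -0.89 (SE 0.41) and its partner Xrcc5 by -0.05 (SE 0.15). Prkdc, the kinase that Ku recruits, differed by 0.01 (SE 0.09), and Polm, a relative of Dntt that fills gaps at the joint, by -0.18 (SE 0.12). Thus 4 of the 5 genes did not pass, and Xrcc6 had the largest error among them.

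Genes that respond to the breaks RAG makes had 6 of 9 on the array, with 2 lower and 0 higher (median -0.16). H2ax, the histone variant that is phosphorylated around a break, fell by 1.37 on the log2 scale (SE 0.19, adjusted p = 0.0003). The checkpoint kinase gene Chek2 fell by 0.24 (SE 0.06), a call lost without thymocyte array 1 or 2 (adjusted p = 0.0647 and 0.055). Atm, the kinase that senses such breaks, differed by 0.08 (SE 0.20) and did not pass.

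Factors known to regulate the 4 genes had 17 of 22 on the array, of which 5 fell, 1 rose and 11 did not pass (median -0.38). Satb1, a chromatin organizer of thymocytes, fell by 1.93 on the log2 scale (SE 0.35, adjusted p = 0.0021). Lef1, which binds T-cell enhancers, fell by 0.82 (SE 0.15), Id3, an inhibitor of E proteins, by 0.75 (SE 0.12), and the ETS factor Elf1 by 0.44 (SE 0.08), or by 0.21 when all its probe sets were averaged (adjusted p = 0.014). Cbfb, the partner of RUNX factors, fell by 0.32 (SE 0.10, adjusted p = 0.0449). Its groups overlapped, with leukemias up to 10.67 and thymocytes from 10.49. Rbpj, which carries the Notch signal to DNA, rose by 0.38 (SE 0.07, adjusted p = 0.0036). The E protein genes Tcf3 and Tcf12 differed by 0.16 (SE 0.11) and -0.52 (SE 0.32) and did not pass. Whether their products bind the letters marked in the promoters above was not measured. Tcf4, another E protein gene that was listed with the plasmacytoid dendritic cell markers, fell by 0.92 (SE 0.15, adjusted p = 0.0011). Its mean in leukemias, 4.92, was below the control level. Notch1, an activator of Ptcra, differed by -0.06 (SE 0.30).

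Several regulators had their lowest values in the same leukemias as the members. For 8 of the 17, leukemias 1 and 7 were the lowest of the 8, where 12.5% of all genes showed this. These were Tcf12, Ikzf1, Runx1, Myb, Satb1, Ets1, Gfi1 and Notch1, of which only Satb1 passed the test. Myb, a factor needed in T-cell progenitors, read 7.45 in leukemia 1 and 8.91 in leukemia 7, against 10.13 to 11.13 in the other leukemias, and 11.16 to 11.43 in thymocytes. Runx1 read 5.41 and 5.73 in leukemias 1 and 7, against 6.99 to 8.13 in the others, and 7.45 to 7.76 in thymocytes. Tcf12 read 7.98 in each of leukemias 1 and 7, against 9.13 to 9.76 in the others, and 9.29 to 9.71 in thymocytes. For both genes leukemias 1 and 7 lay below every thymocyte array. The range of the other 6 leukemias overlapped that of the thymocytes for Tcf12. For Runx1 leukemias 2 and 4 read 8.13 and 8.08, above every thymocyte array. Leukemias 3, 5, 6 and 8 read 7.25, 6.99, 7.27 and 7.27, below every thymocyte array. Tcf3, by contrast, read 7.84 and 7.62 in leukemias 1 and 7, against 7.23 to 7.64 in the other leukemias. These values were looked at after the order of the members was known, and no test was made.

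**Figure D3:**
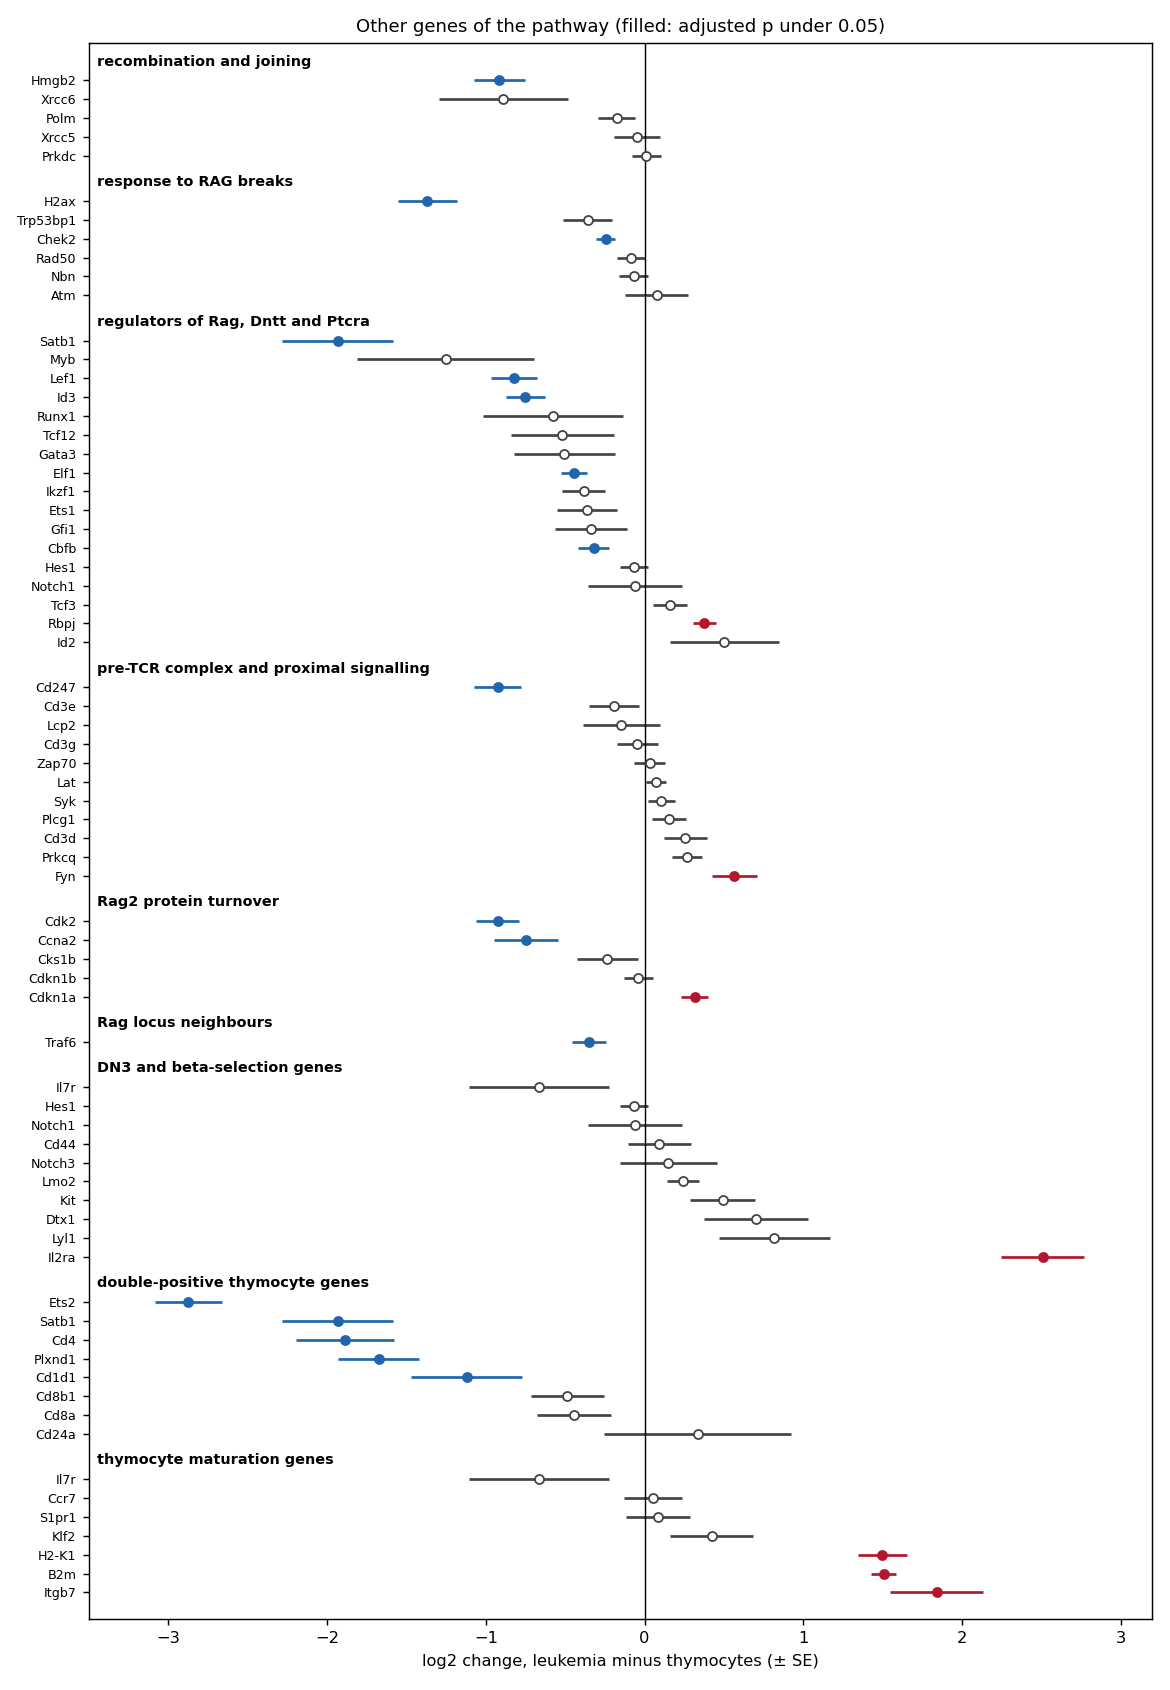
Log2 change of each listed pathway or stage gene, leukemia minus thymocytes, with its SE, grouped by list. Filled points passed an adjusted p under 0.05 (blue lower, red higher in leukemia); most joining and pre-TCR signalling genes are open points near 0, while Ets2, Satb1, Cd4 and Plxnd1 lie far to the left and Il2ra (2.51) far to the right.

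The chains and kinases through which the pre-TCR signals had 11 of 13 genes on the array, with 1 lower, 1 higher and 9 that did not pass (median 0.07). Cd247, the zeta chain, fell by 0.93 on the log2 scale (SE 0.15, adjusted p = 0.0009), and by 0.42 when all its probe sets were averaged (adjusted p = 0.0034). The kinase gene Fyn rose by 0.57 (SE 0.14, adjusted p = 0.0166), and differed by 1.08 without passing in arrays without a 4-digit title number. Zap70, Syk and Lat, which relay the signal from the chains, differed by 0.03, 0.11 and 0.07. Ptcra fell by 0.96 on the log2 scale, close to the change of Cd247, while most measured genes of this list did not pass. Whether Ptcra changed more than these genes was not tested.

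RAG2 protein is marked for degradation when a cell enters S phase, through cyclin A with Cdk2 and the ubiquitin ligase subunit Skp2. Of 5 genes of this step on the array, 2 fell and 1 rose. Cdk2 fell by 0.93 on the log2 scale (SE 0.14, adjusted p = 0.0005) and Ccna2 by 0.75 (SE 0.20, adjusted p = 0.0232), while Cdkn1a, an inhibitor of CDKs, rose by 0.32 (SE 0.08, adjusted p = 0.0208). The call of Ccna2 was lost without thymocyte array 2 or 4 (adjusted p = 0.0702 and 0.0826) and by exact permutation (0.0736), and that of Cdkn1a without thymocyte array 1, 2 or 3 (0.0848, 0.0872 and 0.0532). The arrays measured RNA, and RAG2 protein was not measured.

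Genes of the stages at which the members are used moved unequally. Of 8 double-positive genes 5 fell and 0 rose (median -1.40), on a list that overlaps one already known to be lower in these samples. Ets2 fell by 2.88 on the log2 scale (SE 0.21), Cd4 by 1.89 (SE 0.31) and Plxnd1, a semaphorin receptor gene, by 1.67 (SE 0.26), besides Satb1. Of 10 genes of the stage at which the beta chain is tested 1 rose, 0 fell and 9 did not pass (median 0.20). The one that rose was Il2ra, the interleukin-2 receptor alpha chain that marks this stage and activated T cells, at least 3.14-fold, since all 4 thymocyte arrays were below the control level (log2 change 2.51, SE 0.26). Dtx1, a Notch target, differed by 0.70 (SE 0.33) and Notch3 by 0.15 (SE 0.30). Of 7 maturation genes 3 rose and 0 fell (median 0.42): the integrin gene Itgb7 (1.84, SE 0.29), B2m (1.51, SE 0.08) and H2-K1 (1.499, SE 0.15). The H2-K1 probe set can cross-hybridize, and without such probe sets the gene differed by 0.14 and did not pass.

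Rag1 and Rag2 lie side by side on chromosome 2, so the nearest measured genes on either side were read as well. In the order of RefSeq genes, Traf6, Commd9 and Fjx1 are 2, 4 and 15 places from the pair, and Api5, Ttc17 and Hsd17b12 are 29, 32 and 38 places away on the other side, so these last 3 are not close. Traf6, an adaptor of cytokine receptor signalling, is the nearest measured gene on the side of Rag1. It fell by 0.35 on the log2 scale (SE 0.11, adjusted p = 0.0452), a call lost in 16 of 26 alternatives. In leukemia 1 Traf6 read 7.25, within the leukemia range of 6.96 to 7.57, against 7.46 to 7.82 in thymocytes. Commd9 and Fjx1, further out on the same side, differed by 0.03 and 0.11, and Api5, Ttc17 and Hsd17b12, on the side of Rag2, by -0.10, -0.16 and 0.16, and none of these passed. Leukemia 1, which had background levels of Rag1, had the highest Api5 and Hsd17b12 values and the lowest Ttc17 value among leukemias. Traf6, Commd9, Api5, Ttc17 and Hsd17b12 lay within 1 log2 unit of their thymocyte mean in leukemia 1. Fjx1 was below the control level there and in 6 of the 8 leukemias, so it gives only a bound.

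**Figure D4:**
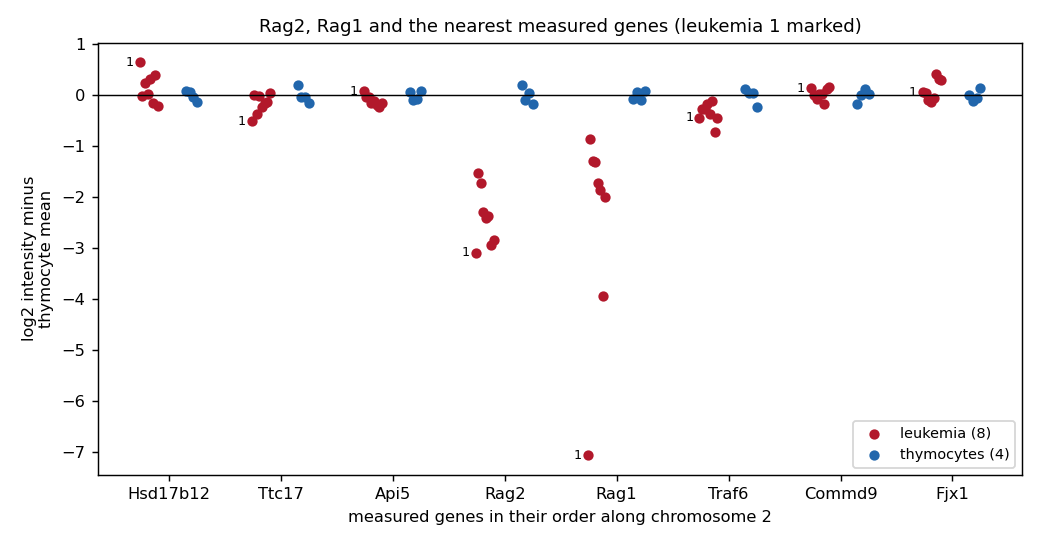
Log2 intensity minus the thymocyte mean for Rag2, Rag1 and the 3 nearest measured genes on each side, in their order along chromosome 2. Leukemias (8, left) and thymocytes (4, right) are points, and leukemia 1 is marked; Rag1 and Rag2 were below the control level of that array, so their points there stand for at least 83.01-fold and 7.10-fold lower levels, while the points of the 6 neighbours lie within 1 log2 unit of 0 (Fjx1 is near the control level in both groups).

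The genes whose values were most like each member over the 8 leukemias were taken from 998 genes whose mean lay above the median of all probe sets and whose SD over leukemias was at least 0.3. The likeness is Pearson's r over 8 arrays, which share their leukemias and rest largely on leukemias 1 and 7, and no p is given for it. For Rag1 they were Tspan13, a tetraspanin (r = 0.983), Fbln2, an extracellular matrix protein (0.977), and Rtf2 (0.973). Fbln2 read 6.03 in leukemia 1 and 8.14 in leukemia 7, against 9.05 to 10.19 in the other leukemias. For Rag2 they were Jup, which encodes plakoglobin (0.939), Vps35 (0.899) and Psmc6, a proteasome ATPase (0.891). Of these only Jup was also called lower in leukemia (-1.34, SE 0.19).

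For Dntt the most alike were Casp6, a caspase (r = 0.989), Myl10, a myosin light chain (0.989), and Satb1 (0.985). Satb1 fell with Dntt in leukemia, whereas Myl10 rose by 3.61 on the log2 scale (SE 0.50). Satb1 and Myl10 thus differed in direction against thymocytes. Myl10 read 8.09 and 8.59 in leukemias 1 and 7, against 9.95 to 11.21 in the other leukemias, with a thymocyte mean of 6.45. For Ptcra they were Hpcal1, a neuronal calcium sensor family member (0.942), Cxxc5 (0.917) and Cd47, the surface signal that restrains phagocytes (0.914), none of which was called in either direction. In 11 of the 12 genes leukemias 1 and 7 held the 2 lowest values, against 12.5% of all genes. The genes were chosen for likeness to members with this pair lowest, so this count largely follows from the choice.

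**Figure D5:**
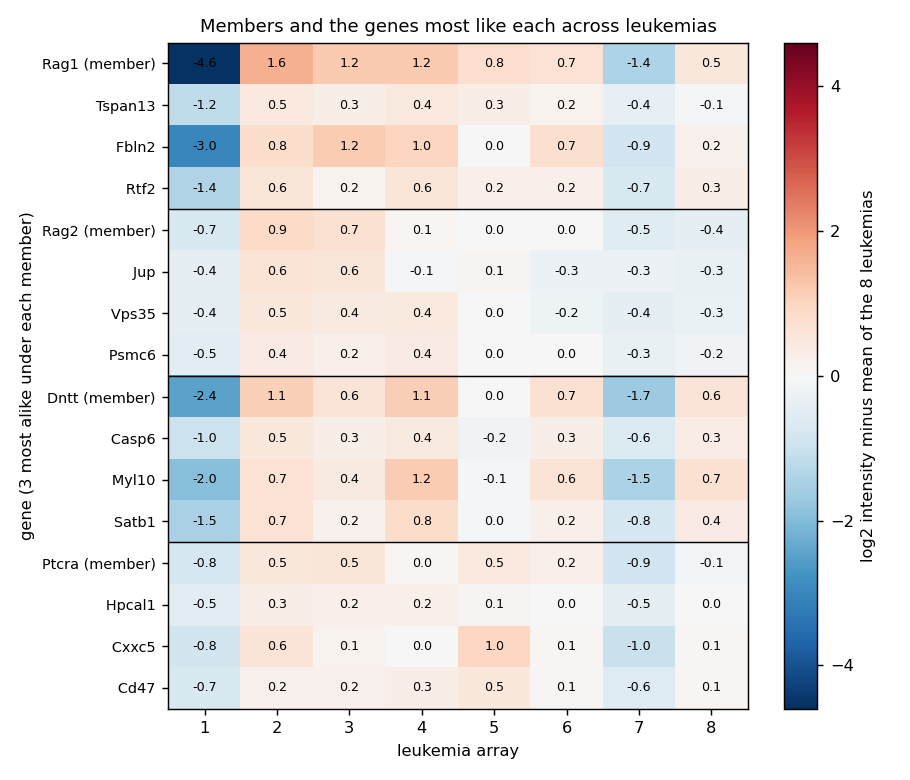
Log2 intensity minus the mean of the 8 leukemias, for each member (first row of each block) and the 3 genes most like it; columns are leukemias 1 to 8. Columns 1 and 7 are negative in every row, and for Dntt and its 3 genes column 5 is near 0.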

How the data were processed

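Per the submitters' processing notes, the deposited values are intensities made by the authors with RMA. They are on a linear scale, and the sources used here give no version of RMA, later step or genome build. The table held 12488 probe sets, of which 66 controls were left out. Of the 12422 tested, 10833 had 1 gene in the platform annotation, 396 several and 1193 none, and 10817 of the first were matched to RefSeq (GRCm38.p6) for symbols. The number of arrays limits the precision.

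Intensities were converted to log2 without an offset. Groups from the labels were compared with limma 3.58.1 in R 4.3.3 (lmFit, eBayes, no covariate), two-sided, with Benjamini-Hochberg adjustment over all probe sets, and every adjusted p without another name comes from this fit. The fit was tested on simulated data that gave both groups the same spread for a probe set. The brightest probe sets of the members had larger spreads in leukemias, a case the simulation did not cover. Replicate numbers follow the order of the samples and pair nothing.

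A gene outside the members was read by its probe set with the highest mean. The members and the 18 gene lists were chosen with earlier results of these data known. Of 153 listed genes 113 were on the array. None of the 8 listed T-cell receptor constant genes was matched to a probe set with 1 gene, and Iftap, next to Rag2, was not analysed here. Named were the members, up to 4 called genes with the largest statistic per pathway or stage list, the 2 brightest of each marker list, and 3 most alike genes per member. The remaining list genes in the text were picked once their values had been seen. The background level was the 95th percentile of 19 control probe sets on each array.

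Alternatives were brighter probe sets, quantile normalization, centring, trend and robust variance, array weights, the title number as a block or within its groups, leaving out each array, exact permutation and an adjusted p under 0.01. For lists they were the mean of probe sets and no cross-hybridizing probe sets. Leaving out leukemias 1 and 7, and 1 variance per group, were added after seeing the data.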

Additional observations from a re-analysis of the deposited data

How the results depend on the processing

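All alternatives kept the brightest probe sets of the 4 genes lower in leukemia, and Rag2 passed in all 24. Of the 7 member probe sets, 6 were called lower with array weights, in arrays with a 4-digit title number, without leukemias 1 and 7 and with 1 variance per group, 1 was in arrays without such a number, and 2 to 6 were when 1 array at a time was left out. In the first 4 of these settings Rag1 differed by -1.93, -1.27, -1.501 and -2.50 and passed. Dntt on 161409_f_at differed there by -1.36, -0.99, -1.03 and -1.72 and passed as well. With 1 array left out, Rag1 ranged from -2.73 to -1.85 and passed in 1 of 12 fits. Dntt on 161409_f_at then ranged from -1.88 to -1.37 and passed in 2 of 12. Ptcra did not pass with an exact permutation (-0.96, adjusted p = 0.0827), at an adjusted p under 0.01 (-0.96) or in arrays without a 4-digit number (-1.24), and gave -1.03 to -0.83 with 1 array left out. The second Rag1 probe set turned to 0.042 with quantile normalization and 0.036 in arrays without a 4-digit number, and ranged from -0.055 to 0.054 with 1 array left out. The causes were not tested, and each subset also held fewer samples. Over all probe sets, counts called lower and higher were 2060 and 1340 with array weights, 10 and 3 in arrays without a 4-digit number, 675 and 333 at an adjusted p under 0.01, and 759 to 1426 and 390 to 618 with 1 array left out; without thymocyte array 1 or 2, 759 and 792 were lower. Of the list genes 1 was lower and 0 higher in arrays without a 4-digit number, and 12 were higher with array weights. For the 20 named list genes 471 of 518 values stayed on their side of the threshold, 47 no longer passed and 0 turned. No paired analysis was possible because the labels give no replicate numbers that groups share. Correlations between members were not run, since every pair of members held a gene whose largest gap was over the 40% limit.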

Other observations

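Leukemias 1 and 7, lowest for all 4 members, were also the lowest of the 8 for 7 of the 8 double-positive genes on the array (Cd4, Cd8b1, Cd24a, Ets2, Plxnd1, Cd1d1 and Satb1), 3 of 11 genes of pre-TCR signalling (Cd3d, Cd247 and Lcp2), 2 of 10 genes of the beta-selection stage (Notch1 and Notch3) and 1 of 5 joining genes (Xrcc6). No gene of the lists of break response (6 genes), RAG2 turnover (5) or maturation (7) had this pair lowest, and over all genes the share was 12.5%. These counts were made after the order of the members was seen and carry no test.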
